A study of Arabidopsis thaliana with 9 samples.

Results

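Rosette leaves of an Arabidopsis thaliana line that carries an empty induction vector differed from leaves of a line carrying DVL4 in 89 of 22746 probe sets on Affymetrix ATH1 arrays, where both groups of the DVL4 line stood at about the same level. Of these, 69 were higher and 20 lower in the empty vector line. The members were chosen by the measured values themselves: intensities under 5 were raised to 5 and log2 was taken, and group means of these log2 values were compared. A probe set was kept if the means of the 2 DVL4 line groups lay less than 0.4 apart on the log2 scale, the empty vector mean differed from both by 0.7 or more in the same direction, and its 3 arrays all lay outside the 6 arrays of the DVL4 line. The brightest group mean also had to exceed 80. The values below therefore describe the members, and no test is given for them.

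DVL4 encodes a small peptide of the DEVIL family, and overexpression of these peptides alters plant form. Both lines were in the Columbia background and carried the GVG construct, in which dexamethasone (dex, a steroid) activates transcription of an inserted coding sequence. The empty vector line held no insert and was treated with dex, while the second line held the DVL4 coding sequence and was treated with dex or mock. These are called empty vector dex, DVL4 dex and DVL4 mock below, with 3 arrays each. The dex concentration was 30 in the labels' unit um, and plants at the stage of 6 expanded rosette leaves were grown at 22 °C with 16 h days. The largest rosette leaf was collected 10 h after treatment, and leaves of 20 plants were pooled into each replicate. The empty vector line was described as looking like wild type with or without dex, as was the DVL4 line without dex. Mock-treated empty vector plants were not analysed here, so dex and line cannot be told apart in the comparison with DVL4 mock. The labels name 1 line per construct, so what the lines differ in besides the insert, such as insertion site, seed lot or growth, cannot be told apart from the construct.

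Some of the named members have known roles in plant immunity, and their share was not compared with that among all probe sets. In that system, receptors at the cell surface and inside the cell detect microbes, and lipase-like proteins of the EDS1 family relay signals from intracellular receptors of the TIR class towards salicylic acid, the hormone of defence against biotrophic pathogens. Ankyrin repeat proteins, cysteine-rich secreted proteins and U-box ubiquitin ligases also act in or alongside this response in Arabidopsis.

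Array medians ran from 75.1 to 83.8 intensity units, and 1114 to 1294 probe sets per array lay under the floor of 5. Empty vector dex replicate 1 and DVL4 dex replicates 1 and 2 had a ratio of 5′ to 3′ signal of 0.23 to 0.28 in the dap control probe sets, against 0.60 to 1.33 in the other 6 arrays. The leaf genes RCA, PRK and LHCB4.1 averaged between 8083 and 10647 in all groups and did not pass in limma between the empty vector and either group of the DVL4 line. The root markers PYK10, EXPA7 and EXPA18 had group means between 14.3 and 39.2 and did not pass either. None of the 6 listed DVL genes could be assigned to a probe set with the gene table used here, so induction of DVL4 was not measured. In pooled leaves, fewer cells of a type and less RNA per cell cannot be told apart.

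Over all probe sets, the 3 empty vector arrays lay above all 6 DVL4 line arrays for 663 (2.91%) and below them for 403 (1.77%). Among the former, 187 differed by 0.7 or more from both groups, 125 of these had DVL4 groups less than 0.4 apart, and 69 were bright enough. Among the latter the same steps left 80, 65 and 20. In limma, 65 of the 69 higher members were called above DVL4 dex (percent of all probe sets called in that direction, 5.53%) and 62 above DVL4 mock (4.15%). Of the 20 lower members, 18 were called below DVL4 dex (4.62%) and 17 below DVL4 mock (2.05%). These calls use the values that chose the members, and nothing is read from them. In either direction, 10.2% of all probe sets were called between empty vector dex and DVL4 dex, 6.2% between empty vector dex and DVL4 mock, and 23.7% between the DVL4 groups. Over all probe sets 1258 were called higher and 1052 lower against DVL4 dex, a split that turned to 1040 and 1415 with arrays scaled to a common median. Against DVL4 mock 944 were higher and 467 lower, and that scaling gave 835 and 644.

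**Figure D1:**
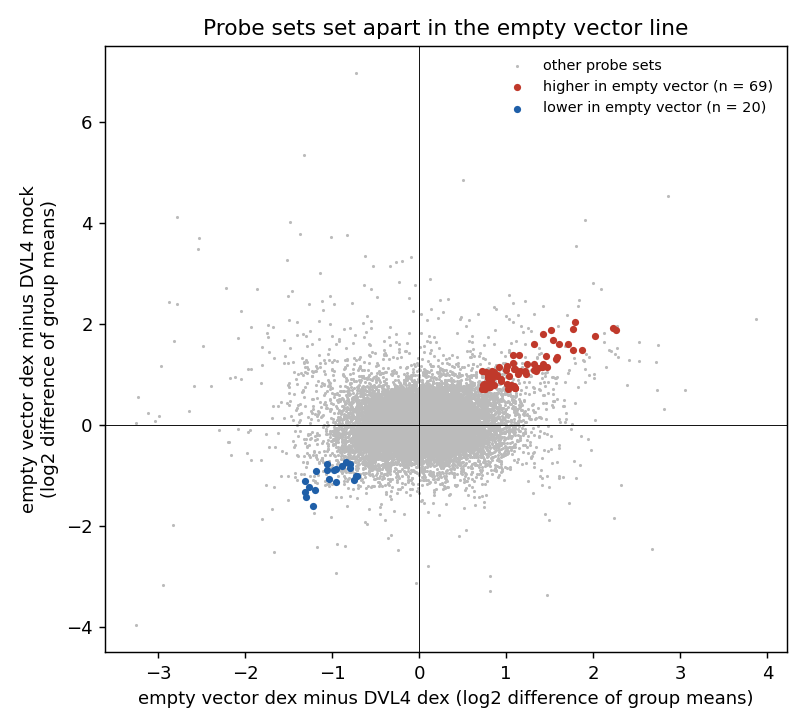
Each point is a probe set, placed by the log2 difference of the empty vector dex mean from DVL4 dex (horizontal) and from DVL4 mock (vertical). The 69 higher members lie near the diagonal at upper right and the 20 lower members at lower left, since the rule allows the 2 DVL4 line groups to differ by less than 0.4.

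The typical higher member was doubled in the empty vector line. Their median difference from the nearer of its groups was 1.0 on the log2 scale and ranged from 0.71 to 1.92, with 37 members at 1 or more and 9 at 1.5 or more. The median level of the 69 was 260 in empty vector dex, 127 in DVL4 dex and 128 in DVL4 mock. Between dex and mock in the DVL4 line, 31 of them leaned up and 38 down, with a median of -0.04. The lower members were closer to the threshold, with a median difference of -0.90 from the nearer group and 7 at 1 or more. Their median levels were 135, 269 and 280 in the same order.

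A probe set has 1 gene in the table for 28 of the higher members, several genes for 1, and none for 40. These unlisted probe sets are unnamed here. Grouped by what their genes are known for, a grouping made after the values were seen, the 28 held 3 genes of immune signalling, 4 protein kinases, 2 ankyrin repeat proteins and 3 secreted, anchored or small membrane proteins. A further 4 encode transport proteins, 6 act in metabolism, redox or stress, 2 in cell wall or glycosylation and 1 in small RNA pathways, and 3 are given without a role. The share of each role among all genes of the table was not taken, so no theme is read from these counts.

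AT3G48080 (EDS1B), one of the 3 genes of immune signalling, had the largest difference of all higher members. It encodes a close paralog of EDS1, the lipase-like hub of immunity through TIR-type receptors. Its 3 empty vector arrays read 105, 98.2 and 146, those of DVL4 dex 28.7, 32.1 and 15.9, and those of DVL4 mock 39, 34 and 20.7. The empty vector arrays stood far above all arrays of the DVL4 line, and the log2 difference was 2.22 from DVL4 dex and 1.92 from DVL4 mock. No probe set of EDS1 itself could be assigned with the gene table used here, and whether its RNA reaches the EDS1B probe set was not tested.

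AT4G36150 encodes a TIR-type intracellular immune receptor with a nucleotide-binding and a leucine-rich repeat domain. It read 139, 80.5 and 148 in empty vector dex, 45.5, 65.1 and 42.5 in DVL4 dex, and 59.2, 55 and 40.9 in DVL4 mock. Empty vector replicate 2 was the nearest to the DVL4 line, whose own groups overlapped. PUB24 is a U-box ubiquitin ligase that, with PUB22 and PUB23, dampens immune responses. Its arrays read 80.3, 87.7 and 76.6 in empty vector dex, against 28.7, 41.2 and 29.2 in DVL4 dex and 49.6, 37.4 and 30.5 in DVL4 mock, so the empty vector arrays were both high and close together. The difference from the nearer group was 1.21 for AT4G36150 and 1.08 for PUB24.

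Of the 4 protein kinases, AT1G66880 stood furthest apart. It read 208, 268 and 336 in empty vector dex, 81.5, 123 and 108 in DVL4 dex, and 142, 143 and 89.7 in DVL4 mock, a difference of 1.12 from the nearer group. AT2G23200, a receptor kinase of the CrRLK1L family, averaged 471 ± 97.3 in empty vector dex (SD, n = 3), against 282 ± 36.8 in DVL4 dex and 225 ± 49.1 in DVL4 mock. AT1G16670 (CRPK1), a plasma membrane kinase of the cold response, averaged 176 ± 31.2 against 83.9 ± 3.84 and 103 ± 24.7. All 4 kinases, AT2G40270 among them at 750 ± 76.8 against 419 ± 37.1 and 396 ± 75.7, lay between 0.73 and 1.12 above the nearer group.

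Another pair of CrRLK1L kinase genes was reached through the member probe set that is listed with several genes, AT5G39000 and AT5G38990. It read 775, 593 and 857 in empty vector dex, 354, 474 and 328 in DVL4 dex, and 440, 407 and 324 in DVL4 mock. Which of the pair gave the signal cannot be told apart from this probe set.

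Both ankyrin repeat genes belong to the family of ACD6, a membrane regulator of salicylic acid-dependent defence and cell death. AT4G03450 read 47.1, 119 and 124 in empty vector dex, 42.7, 24.4 and 28.7 in DVL4 dex, and 28.1, 21.9 and 22.9 in DVL4 mock. Replicate 1 of the empty vector, a low-5′ array, barely cleared the DVL4 line, whereas the other two were far above it, and the mean difference was 1.51 from DVL4 dex. AT4G05040 averaged 276 ± 29.3 against 136 ± 4.6 and 157 ± 10.0, with a difference of 0.81 from DVL4 mock.

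Among the secreted, anchored and small membrane proteins, AT5G48540 carries the cysteine-rich repeats also found in the CRK receptor kinases. It read 181, 286 and 257 in empty vector dex, 88.8, 118 and 66.9 in DVL4 dex, and 131, 102 and 93 in DVL4 mock. AT5G19240, which encodes a GPI-anchored glycoprotein, read 1487, 1893 and 1863 against 641, 928 and 537 in DVL4 dex and 910, 868 and 632 in DVL4 mock. In both genes the empty vector arrays stood clear of the rest, by 1.14 and 1.13 on the log2 scale from the nearer mean. AT3G22240, a small cysteine-rich membrane protein related to PCC1, was the brightest member with 1 gene, at 8018 ± 440 against 4108 ± 1333 in DVL4 dex and 5006 ± 1388 in DVL4 mock.

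AGO7, the Argonaute protein that binds miR390 and starts the trans-acting siRNA pathway of leaf polarity and phase change, had the third largest difference among the named genes. Its arrays read 112, 57.9 and 88.5 in empty vector dex, 24.3, 33.9 and 14.1 in DVL4 dex, and 42.6, 28.3 and 21.3 in DVL4 mock. The empty vector arrays were all higher but spread widely, and the log2 difference was 1.88 from DVL4 dex and 1.5 from DVL4 mock.

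AT1G68600, of the aluminium-activated malate transporter family, led the transport genes. It read 810, 914 and 973 in empty vector dex, 402, 354 and 241 in DVL4 dex, and 461, 418 and 342 in DVL4 mock, so the lowest empty vector array was far above every array of the DVL4 line. AT2G39210 and AT5G54860 are both of the major facilitator group. AT2G39210 averaged 175 ± 49.6 in empty vector dex against 90.7 ± 12.2 in DVL4 dex and 81.4 ± 34.2 in DVL4 mock. Its lowest empty vector array read 128, near the highest DVL4 line array at 118. AT5G54860 averaged 177 ± 41.1 against 100 ± 14.9 and 89.6 ± 21.3. ACA.l, a P-type ATPase gene, averaged 196 ± 30.3 against 113 ± 11.8 in DVL4 dex and 102 ± 17.3 in DVL4 mock.

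The metabolic and stress genes were CYP71B23, MT1C, Hsp70-2, AT1G06830, AT1G03400 and AT1G17430. The cytochrome P450 gene CYP71B23 read 59.9, 102 and 161 in empty vector dex, 33.8, 52.4 and 51.5 in DVL4 dex, and 44.5, 34.5 and 36.4 in DVL4 mock. It had the widest empty vector spread of these 6 relative to its mean, with replicate 1 just above the DVL4 line. MT1C, a metallothionein that binds metal ions, read 542, 686 and 579 against 328, 291 and 180 in DVL4 dex and 387, 286 and 209 in DVL4 mock. Its empty vector arrays were well above the DVL4 line, whose own groups overlapped.

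Hsp70-2, a cytosolic chaperone gene, averaged 280 ± 111 in empty vector dex against 121 ± 31.5 and 127 ± 19.8. Its low-5′ empty vector replicate 1 read 152, barely above the highest DVL4 line array at 149. Cross-hybridisation with related Hsp70 genes was not tested. The related AT3G09440, which the rule did not choose, averaged 2189 ± 397 against 1285 ± 179 and 2013 ± 87.5. It was higher than in DVL4 dex by 0.76 (limma adjusted p = 0.00798) and did not pass against mock (0.11). The glutaredoxin gene AT1G06830 averaged 324 ± 25.3 against 188 ± 68.2 and 157 ± 18.0. The dioxygenase family gene AT1G03400 and the alpha/beta hydrolase gene AT1G17430 were 1.7-fold and 1.72-fold above the nearer group.

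TBL38, of the family that acetylates cell wall polysaccharides, averaged 111 ± 10.9 against 63.4 ± 17.7 in DVL4 dex and 53.4 ± 7.27 in DVL4 mock. The galactosyltransferase family gene AT1G05170 was the member nearest the threshold, at 0.71. AT4G22980 read 98.8, 82.3 and 98.4 in empty vector dex, 40.8, 52.9 and 39.9 in DVL4 dex, and 55.5, 28.9 and 39.2 in DVL4 mock. Like PUB24 it combined tight empty vector arrays with a difference of 1.07. AT3G04480 and AT5G64550 lay 0.82 and 0.76 above the nearer group.

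**Figure D2:**
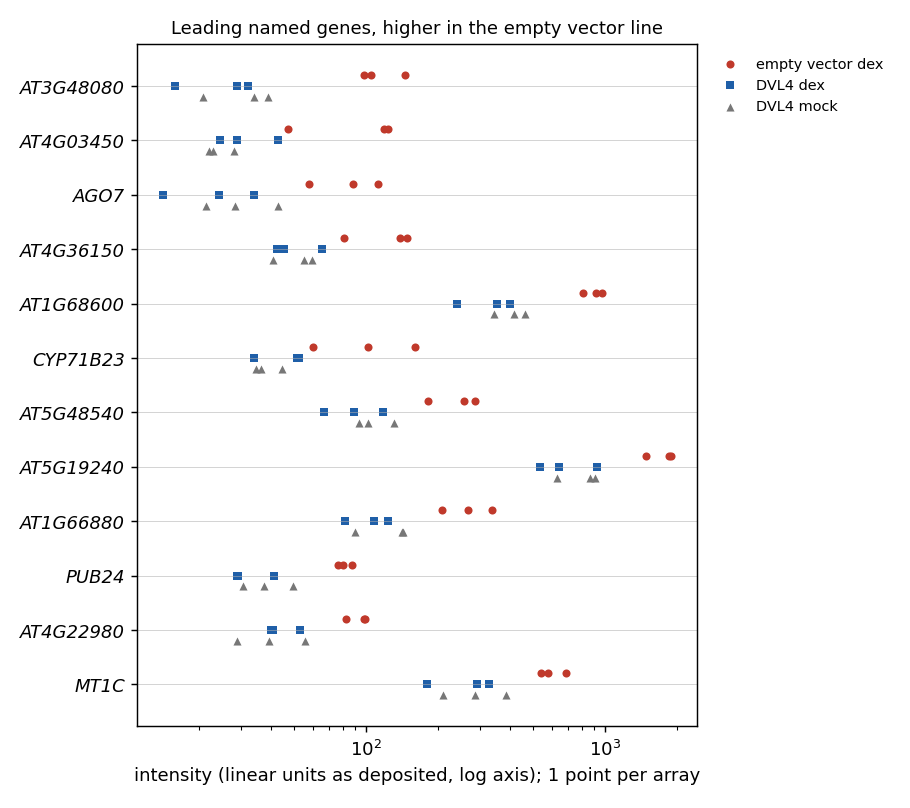
Intensity (log axis) on each of the 9 arrays for the 12 named genes with the largest differences among those higher in the empty vector line, 1 point per array. In every row the 3 red empty vector points lie to the right of all 6 others, narrowly for AT4G03450 and CYP71B23 and widely for AT3G48080.

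The unlisted higher members included 2 bright probe sets with large differences. The first read 1055, 945 and 1306 in empty vector dex, 214, 337 and 162 in DVL4 dex, and 408, 375 and 171 in DVL4 mock. Its difference of 1.88 from the nearer group was second to that of EDS1B. The other, at 1.77, averaged 1969 ± 371 against 588 ± 164 and 536 ± 140.

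Just inside the limit of 0.7, beside AT1G05170, were an unlisted probe set and AT3G22240, both at 0.72. Just outside it were AT5G05090, which rounds to 0.70 but lies under it, and AT5G12940 and AT5G46230, both at 0.69.

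Between some arrays within the DVL4 line, where the rule set no order, most of the higher members differed in 1 shared direction. DVL4 mock replicate 1 was above mock replicate 3 for 64 of the 69 (92.8%), with a median log2 difference of 0.48, against 56.9% of the 12022 probe sets above the brightness minimum. DVL4 dex replicate 2 was above dex replicate 3 for 60 (87%), with a median of 0.41, against 53.7%. DVL4 mock replicate 2 was above mock replicate 3 for 57 (82.6%), against 44.3%. These 3 of the 9 pairs of arrays within groups were picked after their values were seen. The medians of the set relative to the DVL4 line mean were -0.04, 0.22 and -0.23 on the dex arrays and 0.23, 0.08 and -0.24 on the mock arrays. They were 0.97, 1.03 and 1.23 on the empty vector arrays, and replicate 3 was the highest of the 3 for 46 of the 69 members. Members that share these arrays are not independent replicates.

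**Figure D3:**
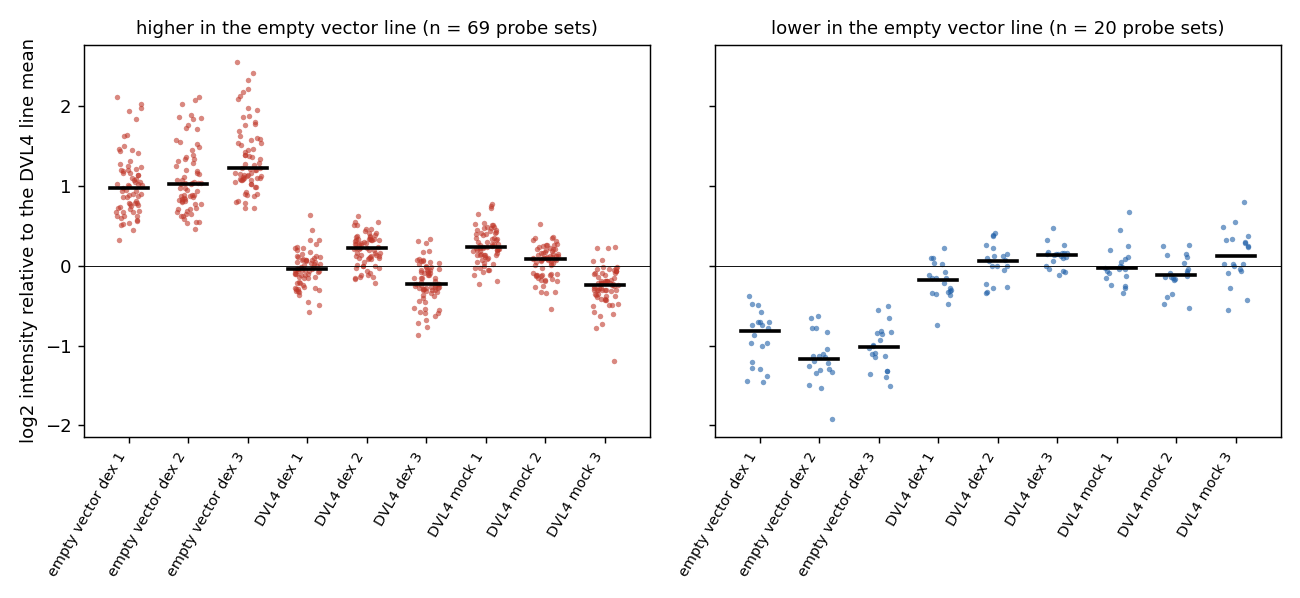
Log2 intensity of each member relative to its mean over the 2 DVL4 line groups, by array, for the 69 higher (left) and 20 lower (right) members; black bars are medians. Empty vector medians run from 0.97 to 1.23 on the left and from -1.17 to -0.82 on the right, while the DVL4 line arrays of the higher set run from -0.24 to 0.23.

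The 20 lower members had 10 probe sets with 1 gene, and the other 10 were unlisted. AT1G62480, annotated as a vacuolar calcium-binding protein, led them. It read 437, 443 and 395 in empty vector dex, 874, 1096 and 1113 in DVL4 dex, and 801, 953 and 1308 in DVL4 mock. The empty vector arrays were close together and well below every DVL4 line array, and the log2 difference was -1.27 from DVL4 dex and -1.24 from DVL4 mock. AT3G06070 read 51.8, 52.6 and 58.3 against 128, 151 and 125 in DVL4 dex and 104, 151 and 104 in DVL4 mock, with similarly tight empty vector arrays.

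UGT76C2 is a glucosyltransferase that inactivates cytokinins by N-glucosylation. It read 80.5, 124 and 125 in empty vector dex, 199, 183 and 247 in DVL4 dex, and 238, 244 and 226 in DVL4 mock, so the low-5′ replicate of the empty vector was the lowest of all 9 arrays. The log2 difference was -0.95 from DVL4 dex and -1.13 from DVL4 mock.

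Peroxidase 71 (AT5G64120, PRX71) oxidises cell wall phenolics. Its arrays read 146, 158 and 115 in empty vector dex, 225, 244 and 254 in DVL4 dex, and 290, 290 and 182 in DVL4 mock, and mock replicate 3 came nearest to the empty vector. The bZIP transcription factor gene BZIP61 was separated by a hair. It read 119.5, 59.7 and 114 in empty vector dex, 119.7, 182 and 233 in DVL4 dex, and 173, 120 and 209 in DVL4 mock, and only the low replicate 2 of the empty vector stood well away.

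AT3G60210, which encodes a GroES-like co-chaperonin, read 596, 330 and 411 in empty vector dex, 885, 868 and 805 in DVL4 dex, and 820, 776 and 824 in DVL4 mock. The DVL4 line was nearly flat and the spread lay in the empty vector arrays. The GRAM domain gene AT5G08350 read 82.2, 95.8 and 75.2 against 156, 192 and 178 in DVL4 dex and 151, 158 and 158 in DVL4 mock. AT5G11070 was tight in all groups, at 629, 614 and 594 against 942, 1096 and 1160 in DVL4 dex and 1023, 1026 and 1071 in DVL4 mock.

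The hydrolase family gene AT2G41250 lay near the threshold. It read 51.9, 80.7 and 80.6 in empty vector dex, 103, 105 and 139 in DVL4 dex, and 127, 140 and 156 in DVL4 mock. All its empty vector arrays were below the DVL4 line, and the difference from the nearer group was -0.72. An unlisted probe set lay just inside the limit at -0.73, and AT5G10160 and another unlisted one, both at -0.65, lay just outside.

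Unlisted probe sets were also among the furthest apart here. The first, at -1.31, averaged 104 ± 43.1 against 244 ± 37.9 in DVL4 dex and 248 ± 52.3 in DVL4 mock. The second, at -1.3, averaged 183 ± 26.0 against 470 ± 172 and 496 ± 121.

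**Figure D4:**
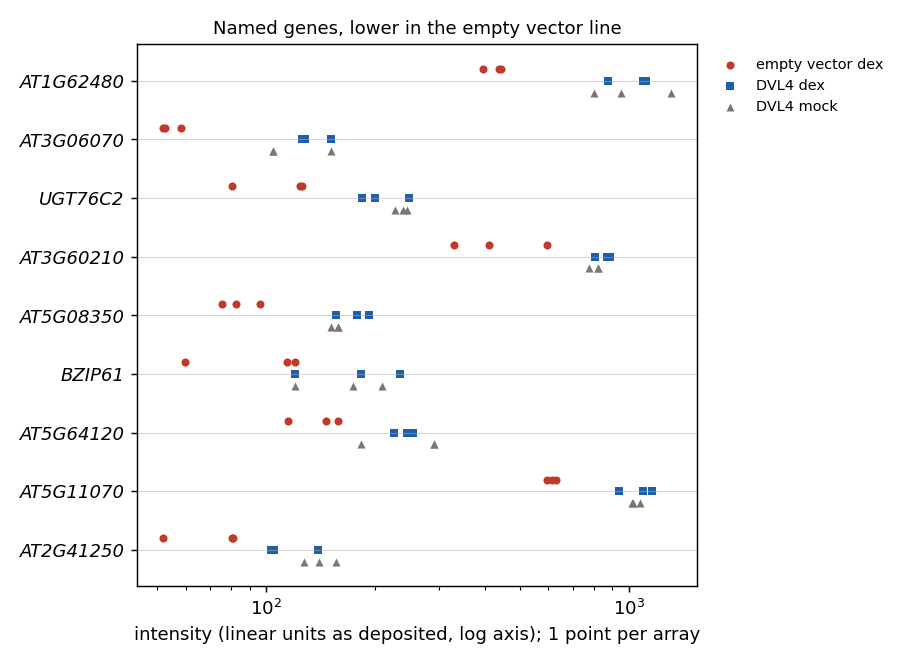
Intensity (log axis) on each of the 9 arrays for 9 named genes lower in the empty vector line, 1 point per array. The 3 red empty vector points lie to the left of all 6 others in every row, and those of BZIP61 reach the edge of the DVL4 line (119.5 beside 119.7).

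One lower probe set depended on how brightness was averaged. AT4G12500, a proline-rich lipid transfer protein gene of the AZI1 group, read 7.36, 10.2 and 8.8 in empty vector dex, 64.7, 72.8 and 63.2 in DVL4 dex, and 151, 72.9 and 42.7 in DVL4 mock. Every DVL4 line array was thus far above the highest empty vector array, and the difference of -2.94 from DVL4 dex exceeded that of every member. Its brightest group mean was 88.8 as a mean of intensities but under 80 as a mean of log2 values, so it is not counted among the 20.

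Relatives of the members, which the rule did not choose, were tested in limma across all 22746 probe sets with Benjamini-Hochberg adjustment and a threshold of 0.05. AT4G12490 (AZI3), close to AT4G12500 on chromosome 4 and in the same gene group, whose AZI1 acts in systemic resistance, was lower in empty vector dex than in both other groups. It stood at 17.8 ± 3.6 (SD, n = 3) against 173 ± 58.4 in DVL4 dex and 294 ± 147 in DVL4 mock, with log2 differences of -3.25 ± 0.36 (SE, limma adjusted p = 0.000922) and -3.96 ± 0.36 (limma adjusted p = 0.00042). It missed the rule only because the DVL4 groups differed by -0.71. Having met the other conditions, AT4G12490 has calls that use the values that set it apart and only describe it. AT4G12500 passed in both comparisons as well, with differences of -2.94 ± 0.39 (limma adjusted p = 0.00198) and -3.16 ± 0.39 (limma adjusted p = 0.00235). It met every condition of the rule but brightness, so these 2 calls use the values that set it apart and only describe it. When the arrays of low 5′ signal were left out, DVL4 dex had a single array; AT4G12490 and AT4G12500 then lost their call against DVL4 dex (log2 differences of -3.48 and -2.74), and AT4G12500 also against DVL4 mock (-3.04). The sequences of this group are similar, and cross-hybridisation was not tested.

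Of 17 CrRLK1L kinases, 12 had a probe set of their own. Beside the member AT2G23200, AT5G39020 was higher in empty vector dex, at 75.1 ± 7.68 against 30.7 ± 9 and 33.5 ± 10.6, by 1.32 ± 0.29 from DVL4 dex (limma adjusted p = 0.0204) and 1.22 ± 0.29 from DVL4 mock (limma adjusted p = 0.0401). Only the brightness minimum kept AT5G39020 out of the members, so these calls use the values that set it apart and only describe it. The first call was lost in 5 of 17 other settings and the second in 13 of 17. Its neighbour AT5G39030 did not pass (0.02 and 0.28). Other members of the family went the other way or differed from 1 group only. FER was lower than in DVL4 dex by -0.48 (limma adjusted p = 0.0446, lost in 11 of 18 other settings) and did not pass against mock (0.13). AT4G39110, a dim probe set, was lower than in DVL4 dex by -0.86 (limma adjusted p = 0.0365, lost in 12 of 17) and did not pass against mock (-0.61). AT2G39360 was higher than in mock by 0.63 (limma adjusted p = 0.0187, lost in 6 of 18) and did not pass against DVL4 dex (-0.34). The remaining measured relatives, THE1 among them (0.07 and -0.26), passed in neither comparison.

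Among ankyrin repeat relatives of the 2 members, AT4G03480, AT4G03500 and AT4G14390 did not pass in either comparison (AT4G14390 at 0.95 and 0.68). AT5G19250, beside AT5G19240 on chromosome 5 and also GPI-anchored, was higher than in DVL4 dex by 0.48 ± 0.10 (limma adjusted p = 0.0137) and did not pass against mock (0.28), although its 3 empty vector arrays lay above the other 6. Of the cluster around UGT76C2, no other gene passed. UGT76C1, AT5G05900, AT5G05880 and AT5G05890 missed the threshold in both comparisons, and UGT76C1 differed by -0.12 and -0.17. Neither PUB22 nor PUB23 was higher with PUB24: PUB22 did not pass (-0.21 and -0.44), and PUB23 was lower than in mock by -0.80 (limma adjusted p = 0.0485), a call lost in 14 of 17 other settings.

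**Figure D5:**
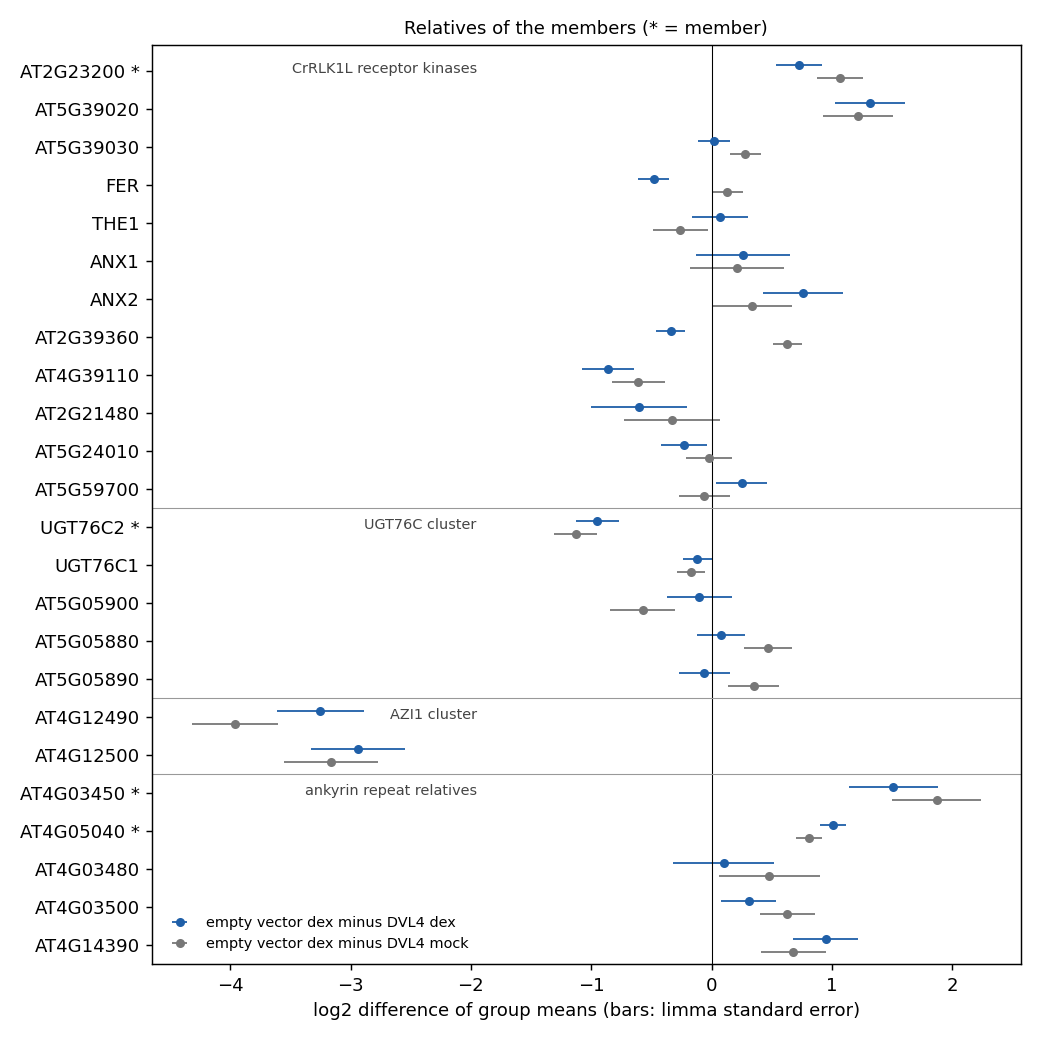
Log2 difference of empty vector dex from DVL4 dex (blue) and from DVL4 mock (grey) for measured genes of 4 gene groups, with limma standard errors as bars and members starred. AT4G12490 and AT4G12500 lie between -2.94 and -3.96, AT5G39020 lies beside the starred AT2G23200, and the relatives of UGT76C2 lie between -0.57 and 0.47.

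Other salicylic acid and defence genes were mostly outside the gene table, with 5 of 29 listed genes measured. One of them is the member EDS1B, whose calls the rule fixed. Of the other 4, 1 was higher in empty vector dex than in DVL4 dex and 1 higher than in DVL4 mock, and none was lower, where 5.53% and 4.15% of all probe sets were called higher. The list was drawn up with earlier results of these data known. The lectin gene AT5G03350, induced by salicylic acid, averaged 2963 ± 420 against 664 ± 372 in DVL4 dex and 1348 ± 836 in DVL4 mock, with all 3 empty vector arrays above the other 6. It was higher than in DVL4 dex by 2.28 ± 0.48 (limma adjusted p = 0.0163), a call lost in 5 of 18 other settings, and did not pass against mock (1.34). It missed the rule only because the DVL4 groups differed by -0.94, so this call only describes it. WRKY53, a factor of defence and senescence, passed against mock (2.36 ± 0.55, limma adjusted p = 0.0361), a call lost in 10 of 17 other settings, but not against DVL4 dex (1.42). SAG101, a partner of EDS1, and the glutaredoxin gene GRX480 passed in neither comparison.

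The immune receptor EFR, the only one measured of 25 listed, did not pass (1.46 and 0.33). In the lipid transfer list, 3 of 8 genes were measured. Beside AT4G12490 and AT4G12500, DIR1-like (AT5G48490) was lower in empty vector dex than in mock by -1.55 ± 0.24 (limma adjusted p = 0.00648) and did not pass against DVL4 dex (0.16).

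The 38 members with 1 gene lay on all chromosomes. Chromosome 1 held 11 of the 28 higher members and 1 lower one, and the other chromosomes held 3 to 5 higher and 1 to 4 lower. Of the probe sets with 1 gene measured on chromosome 1, 0.319% were higher members and 0.029% lower members. On the other chromosomes these shares were 0.136 to 0.204% and 0.0455 to 0.133%. The differences between chromosomes were not tested. No 2 of these 38 were neighbours, the closest being AT5G64120 and AT5G64550 on chromosome 5, 45 protein-coding genes apart and of opposite direction. The 40 higher and 10 lower unlisted members and the 1 with several genes were not placed. Whether any of them adjoins another member is not known. With unlisted probe sets left out, 113 were measured within 3 genes on either side of the 38, and none of them was a member. Members were only 89 of all 22746 probe sets. AT5G19250 was 1 of the 113, the only one with all empty vector arrays on the side of its member, while 1 lay fully on the opposite side. Over all probe sets, the empty vector arrays all lay above the DVL4 line for 2.91% and below it for 1.77%. Nothing is read from these neighbour counts.

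Without the 3 low-5′ arrays, 2 empty vector, 1 DVL4 dex and 3 mock arrays were left. All 69 higher members kept their direction against both groups, with medians of 1.33 and 1.10, and 68 and 65 of them were at least 0.7 apart. All 20 lower members did too, with medians of -1.17 and -1.07. The separation of arrays that the rule requires fixed these directions beforehand. The arrays left had also chosen the members. Applied afresh to them, the rule found 106 higher and 36 lower probe sets, of which 48 and 17 were among the 69 and 20.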

How the data were processed

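The authors hybridised RNA of pooled rosette leaves to ATH1 arrays and processed them in dChip, per the series' design text; the sources used here state neither a version nor a model or normalization. The deposited table gives linear probe set intensity for 9 arrays and covers 22810 probe sets, of which 64 AFFX controls were left out. Groups and replicate numbers came from the titles. No further normalization was applied. Values under 5 were raised to 5, then log2 was taken; group brightness was the mean of log2 values. With 3 arrays per group, the number of arrays limits the precision, and the replicates are described as separate biological samples.

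The gene table gives 1 gene for 13513 probe sets and several for 503, and does not list 8730. A listed gene is called measured only if this table gives it a probe set of its own, so others may be on the array unassigned. Loci, names and gene order came from RefSeq (TAIR10.1). Gene functions are general knowledge.

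Comparisons used limma 3.58.1 in R 4.3.3 (lmFit, eBayes with trend=TRUE, all 9 arrays, group as factor, 2-sided, Benjamini-Hochberg over 22746 probe sets). SEs are limma's and SDs are over 3 arrays. The steps were tested on simulated data. Plots used matplotlib 3.10.9.

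The members, the 11 pathway and 6 marker lists (36 of 194 genes measured) and the tests were chosen with earlier results of these data known, and the gene families were added after the values were seen. Per-array values are given for the 12 higher and 10 lower members with 1 gene that rank first by the smaller of their differences, except 1 lower member that is not reported here. Other members with 1 gene are given by group means. Alternatives covered floors, scaling, each threshold, left-out arrays, the replicate number as a block and limma settings.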

Additional observations from a re-analysis of the deposited data

How the results depend on the processing

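The log2 differences of the 22 genes ranked first kept their sign and moved by less than 1 SD in all 308 recalculations, 14 for each gene; the SD was the largest of the 3 group SDs, a wide yardstick. The rule's separation of arrays fixes the sign in the 12 of these 14 settings that leave out arrays or change the floor, so the kept sign is no sign of stability there. The member counts changed mostly with the rule's own limits. A smallest difference of 0.5 gave 121 higher and 40 lower members, and 1.0 gave 37 and 7. Dropping the brightness minimum gave 125 and 65, a dex to mock limit of 0.2 gave 34 higher, and leaving out the low-5′ arrays gave 106 and 36. Leaving out 1 array at a time gave 49 to 88 higher and 17 to 29 lower members. Quantile normalization gave 62 and 26, and scaling to a common median 57 and 25. Averaging intensities for brightness, a setting chosen after seeing the data, gave 69 and 21.

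In limma, probe sets called numbered 2310 against DVL4 dex, 1411 against DVL4 mock and 5389 between the DVL4 groups. Leaving out 1 array gave 983 to 2250, 465 to 2091 and 3463 to 6087. The count against DVL4 dex was 1538 if empty vector replicate 3 was dropped, 983 if DVL4 dex replicate 1 was and 1315 if DVL4 dex replicate 2 was. Against DVL4 mock it was 602 without empty vector replicate 3, and 742, 566 and 465 without mock replicates 1, 2 and 3. Between the DVL4 groups it was 3463 without DVL4 dex replicate 1. Without the low-5′ arrays the counts were 4, 553 and 1364, with 1 DVL4 dex array assumed to vary like the other groups. Fits of only the compared groups gave 1146 against DVL4 dex and 875 against mock, and trend=FALSE gave 824 against mock. The causes were not tested.

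With the replicate number as a block the counts were 2021, 1233 and 5090. The 9 pairs of same-numbered arrays had correlations of deviations from -0.15 to 0.14, and an array correlated best with its own number in 11 of 18 cases. These values do not decide whether the numbers pair the samples. The numbers were not taken to do so because the labels do not say that they mark a shared day or batch. Calls lost most often were those of AT5G39020 and PUB23 against mock, AT4G39110 (12 of 17 settings), FER (11 of 18) and UGT78D1 (11 of 18) against DVL4 dex, and WRKY53 (10 of 17) against mock. Dim probe sets limit what can be seen, since values near the floor have no order.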

Other observations

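Below the brightness minimum, 56 further probe sets were higher and 45 lower in the empty vector line by the other conditions of the rule, 30 of each with 1 gene. The genes named here were picked after their values were seen. Another ankyrin repeat gene, AT1G10340, stood at 79.7 ± 30.2 in empty vector dex (SD, n = 3) against 33.2 ± 4.1 in DVL4 dex and 35.4 ± 11.8 in DVL4 mock. The leucine-rich repeat kinase genes AT2G23300 and AT5G59680 averaged 34.4 ± 5.08 and 26.2 ± 3.62 in empty vector dex, 2.33-fold and 2.14-fold above the nearer group. On the lower side were 2 further glucosyltransferase genes beside UGT76C2. UGT84B1, which glucosylates auxin, averaged 18.8 ± 2.32 against 33.4 ± 9.16 and 32.4 ± 1.98. UGT73C1, which glucosylates cytokinins among other substrates, averaged 7.01 ± 2.43 against 12 ± 1.85 and 14.5 ± 3.38. It lay near the floor of 5, with empty vector replicate 1 under it at 4.72. HEMA3, a glutamyl-tRNA reductase gene of tetrapyrrole synthesis, averaged 15.6 ± 9.13 against 33.3 ± 8.87 and 25.5 ± 1.02. Only its empty vector replicate 2, at 5.09, stood well below the DVL4 line, since the others read 21.8 and 19.8 beside a lowest DVL4 line array of 23.6.

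Lists without a member held the following values. In the cold and abscisic acid list (3 of 13 measured), COR15B was higher in empty vector dex by 0.96 from DVL4 dex (limma adjusted p = 0.00116) and 0.54 from mock (limma adjusted p = 0.024, a call lost in 8 of 18 other settings). COR15A was higher only than DVL4 dex (0.64, limma adjusted p = 0.00428; 0.26 against mock), and COR47 passed in neither. GI, the 1 measured clock gene of 16, lay between the DVL4 groups, at 166 against 477 in DVL4 dex and 39.5 in mock. The flavonoid gene CHIL also lay between them (646, 233 and 1290), and of 5 measured flavonoid genes of 14, 2 were higher than DVL4 dex (5.53% of all probe sets) and 1 lower than mock (2.05%). They were CHIL in both and UGT78D1, whose call against DVL4 dex (0.49, limma adjusted p = 0.037) was lost in 11 of 18 other settings. Against mock, DFR, UF3GT and A5GT differed by -3.13, -2.98 and -2.08 without passing, and UGT78D1 by -0.15. In DFR, UF3GT and A5GT, mock replicate 2 was far below the other mock arrays (14.3 against 196 and 171 for DFR). None of the 5 measured jasmonate and ethylene genes of 20, the 3 glucosinolate genes of 25 or the 2 touch genes of 8 passed in either comparison by limma at the adjusted threshold. Over all probe sets, 10.2% were called in either direction against DVL4 dex and 6.2% against mock. So few genes were measured that nothing is read from this. Of the markers, TRY (trichome) was higher than in DVL4 dex by 1.08 (limma adjusted p = 0.000829) and did not pass against mock (-0.12), and FAMA (guard cell) passed in neither. No gene of the flowering time, flower or vascular lists could be assigned to a probe set with the gene table used here.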
